A study of Mus musculus with 12 samples.

Results

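Epididymal fat of mice kept on a high-fat diet for life was compared with that of mice that never met the diet, across the whole panel of microRNA assays. The lifelong group, WL, received food in which fat supplied 45% of the energy, first through the dam from mating and then directly until the animals were killed at 23 weeks. The control group, CD, received a control diet, with 10% of the energy from fat, throughout. Protein supplied the same share of the energy in both foods, and carbohydrate a smaller share in the high-fat food. Fat and carbohydrate thus changed together and cannot be told apart here. All animals were male C57BL/6J mice with no gene altered, and each group was represented by 3 pools of RNA from 12 mice in all. The comparison uses 6 of the 12 pools of the study. The others, 3 pools each of mice exposed in utero (UT) and from mating to weaning (UL), entered the estimate of the spread. Of the 504 microRNA assays, 481 gave a value in all 6 pools and carry most of the description below. The WL mice met the diet before birth, during lactation and as adults, so the effects of the periods cannot be told apart in this comparison.

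A microRNA is a short RNA that guides the Argonaute protein to messenger RNAs, mostly through the match of its seed, bases 2 to 8, and lowers their translation and stability. Both arms of a hairpin precursor can be kept as mature microRNAs, named 5p and 3p, and neighbouring hairpins are often cut from a single transcript. In fat, microRNAs are known to bear on the forming of new adipocytes, on insulin and mTOR signalling and on the immune cells that enter the tissue in obesity. Fat pads hold adipocytes, vessels, fibroblasts and leukocytes, and in such bulk RNA fewer cells of a type and less RNA per cell cannot be told apart.

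The sequences below are those of the microRNAs the comparison turns on, 5′ to 3′ from RefSeq (build GRCm38.p6), with the seed in capitals. The first 3 passed the test, miR-484 was the nearest below the threshold among microRNAs measured in every pool, and the last 4 come from the miR-302 and miR-376 hairpins, where CD 3 stood above CD 1 and CD 2.
miR-494: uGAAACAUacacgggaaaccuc
miR-291b-5p: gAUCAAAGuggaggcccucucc
miR-135b-3p: aUGUAGGGcuaaaagccauggg
miR-484: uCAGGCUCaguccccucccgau
miR-302b-5p: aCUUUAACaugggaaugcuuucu
miR-302c-5p: gCUUUAACaugggguuaccugc
miR-302d-3p: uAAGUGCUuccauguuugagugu
miR-376b-5p: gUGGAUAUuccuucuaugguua
The assay called miR-494 carries no arm in its name and is given the sequence of the 3p arm, because the panel holds a separate assay for miR-494-5p. miR-302b-5p and miR-302c-5p share the seed CUUUAAC. By the RefSeq annotation miR-494 lies at chr12:109715367-109715388 within the imprinted Dlk1-Dio3 region, miR-291b-5p at chr7:3219494-3219515, miR-135b-3p at chr1:132198142-132198163 and miR-484 at chr16:14159630-14159651, all on the plus strand.

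MicroRNAs were measured by quantitative RT-PCR, which records the threshold cycle (Ct). The level used here is the mean Ct of the pool over the 466 microRNAs measured in all 12 pools, minus the Ct of the assay. It is in cycles on the log2 scale, and a higher level means an earlier cycle. A difference of 1 stands for a 2-fold step if product doubles in every cycle. No source used here gives amplification efficiencies, so levels of different assays are not amounts that can be ranked exactly. The CD pools had values for 499 to 501 microRNAs and the WL pools for 495 to 503. Around their own group mean the levels scattered with an SD of 0.54 to 0.57 cycles in the CD pools, and of 0.68 in WL 1, 0.79 in WL 2 and 0.97 in WL 3. WL 3 stood apart from the rest: across microRNAs its levels correlated at Pearson's r of 0.914 to 0.929 with those of the other 5 pools, which correlated at 0.937 to 0.971 with each other, a description over assays that share each pool's RNA.

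Most microRNAs differed little between the diets. Over the 481, the median difference of WL minus CD was -0.05, the quartiles were -0.37 and 0.26, and the 5th and 95th percentiles were -0.98 and 1.34. The median standard error (SE) of a difference was 0.43. By limma with Benjamini-Hochberg adjustment over all 504 microRNAs, 3 passed an adjusted p of 0.05, which is 0.595% of those tested, and all 3 were higher in WL. Only 1 of them, miR-494, had a value in each of the 6 pools (0.208% of the 481). The other 2 had a value in 1 CD pool each, so their tests assume that the lone pool varies like the pools of the other groups, and the spread among CD pools was not measured for them. At an unadjusted p under 0.05 there were 36 microRNAs (7.14%), of which 25 were higher in WL (4.96%). Of these, 32 had all 6 values (6.65% of the 481), 22 higher (4.57%) and 10 lower (2.08%). A difference of 1 cycle or more was reached by 34 of the 481 on the higher side (7.07%) and by 23 on the lower (4.78%), and 212 of the 481 were above 0. In 53 of the 481 (11%) all 3 WL pools lay on the same side of all 3 CD pools, 28 above them (5.82%) and 25 below (5.2%). Nothing says that the pools were made from separate litters, so the p-values measure only the spread between these pools.

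**Figure D1:**
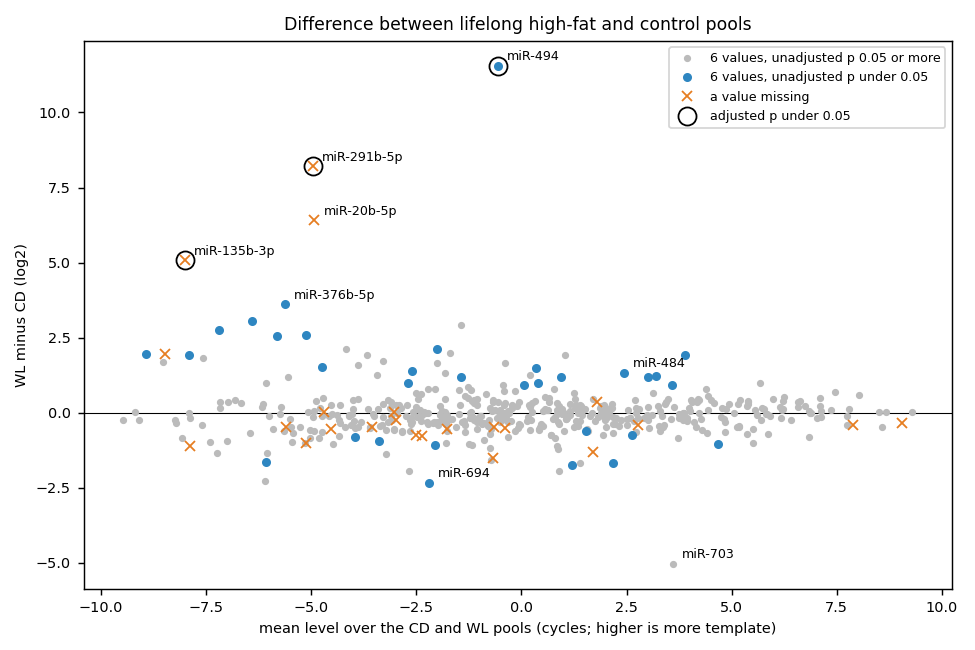
Each dot is a microRNA with values in all 6 pools, and each cross is a microRNA with a value missing in these pools. They are placed by the mean level over the CD and WL pools with a value (cycles, log2 scale) and the difference of WL minus CD (log2). The bulk lies around the median of -0.05, and miR-494 stands farthest above it at 11.56.

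miR-494, an imprinted microRNA, had the widest difference. Its level was -0.31, -9.25 and -9.48 in CD 1, CD 2 and CD 3, and 5.28, 5.31 and 5.05 in WL 1, WL 2 and WL 3. The WL pools lay close together above every CD pool, while the CD pools spanned over 9 cycles among themselves. The raw Ct of CD 2 and CD 3 was 34.04 and 34.37, against 19.60 to 19.94 in the WL pools. The difference was 11.56 (SE 1.99, adjusted p by limma 0.0374), or 3020-fold if product doubled at each cycle. UT 1 and UT 2 gave no value for this assay, UT 3 stood at 2.07, and the UL pools stood at 4.96, 5.15 and 4.83, inside or near the range of the WL pools. Leaving out CD 1 gave 14.58 (adjusted p 1.67e-08 by limma). Leaving out CD 2 or CD 3 gave 10.11 and 9.99, with adjusted p of 0.124 and 0.068 by limma, and leaving out WL 1, WL 2 or WL 3 gave adjusted p of 0.176, 0.102 and 0.0578. The other arm of the hairpin did not follow: miR-494-5p stood at -2.96, -3.22 and -2.53 in the CD pools and at -4.20, -3.84 and -3.53 in the WL pools, a difference of -0.95 (SE 0.30, adjusted p 0.313 by limma). Every WL pool thus lay below every CD pool for one arm and above for the other.

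The other calls rested on a single CD pool each, so their SE came from the other groups alone. miR-291b-5p, from the cluster of embryonic stem cell microRNAs on chromosome 7, was measured in CD 1 only, at -11.12 (Ct 35.92), and stood at -2.34, -2.85 and -3.51 in the WL pools. The difference was 8.22 (SE 0.55, adjusted p 0.000452 by limma). The UL pools stood at -3.01, -2.78 and -2.66, among the WL values. Its other arm, miR-291b-3p, had all 6 values, at -8.81, -11.48 and -9.39 in CD and -8.62, -8.00 and -7.20 in WL. That arm differed by 1.95 (SE 0.62, adjusted p 0.313 by limma), with every WL pool above every CD pool.

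miR-135b-3p, the less studied arm of a hairpin in the miR-135 family, was measured in CD 3 only, at -11.80 (Ct 36.69), and at -6.37, -7.45 and -6.37 in the WL pools. The difference was 5.07 (SE 0.52, adjusted p 0.000828 by limma). The 3 UT pools stood between -7.66 and -7.48 and the 3 UL pools between -7.90 and -7.30, below WL 1 and WL 3. The 5p arm, which had all 6 values, differed by -0.49. miR-20b-5p, of the miR-17 family, is named after its values were seen: it stood at -9.73 in CD 1, had no value in CD 2 and CD 3, and stood at -2.43, -2.29 and -5.23 in WL. Its difference of 6.42 (SE 1.11) had an adjusted p of 0.0572 by limma.

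Among microRNAs measured in every pool, miR-484 came nearest to the threshold after miR-494. miR-484 is known as a regulator of mitochondrial fission. It stood at 1.63, 1.87 and 1.79 in the CD pools (mean 1.76 ± 0.13, SD, n = 3) and at 3.13, 2.87 and 3.31 in the WL pools (3.10 ± 0.22, SD, n = 3). The groups were 1 cycle apart at their closest, and each was tight. The difference was 1.34 (SE 0.28), or 2.53-fold, with an adjusted p of 0.0572 by limma. Leaving out each of the 6 pools in turn gave 1.24 to 1.46, with adjusted p by limma of 0.0986 to 0.363. The UT and UL pools lay between the groups, at means of 2.39 ± 0.26 and 2.45 ± 0.28 (SD, n = 3 each). The difference of WL minus UL was 0.66 (SE 0.28, adjusted p 0.805 by limma) and that of WL minus UT was 0.71 (SE 0.28, adjusted p 0.262 by limma).

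One assay of miR-378, and that of miR-483, both microRNAs linked to metabolism, also separated the groups. miR-378, made from the gene of the coactivator PGC-1β, was read by a pair of assays of the same name. Assay 2 gave -0.23, -0.57 and -0.35 in CD and 1.30, 0.85 and 1.14 in WL, a difference of 1.48 (SE 0.36, adjusted p 0.133 by limma). Assay 1 gave 0.74, 1.54 and 2.06 in CD and 1.40, 1.22 and 2.08 in WL, so its groups overlapped and its difference was 0.12 (SE 0.41). The names do not tell which arm each assay reads.

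miR-483, which lies within the growth factor gene Igf2, stood at 0.23, 0.41 and 0.41 in CD and at 1.35, 1.38 and 1.89 in WL. All WL pools were above all CD pools, with a difference of 1.19 (SE 0.33, adjusted p 0.287 by limma). miR-351-3p, from the X-linked cluster of miR-322 and miR-503, stood at 2.34, 2.34 and 2.55 in CD and at 3.62, 3.58 and 3.58 in WL. Both groups were tight and did not overlap, with a difference of 1.18 (SE 0.35, adjusted p 0.303 by limma). The UT pools of miR-351-3p stood at 3.26, 3.75 and 4.48, around the WL pools and above the CD pools.

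**Figure D2:**
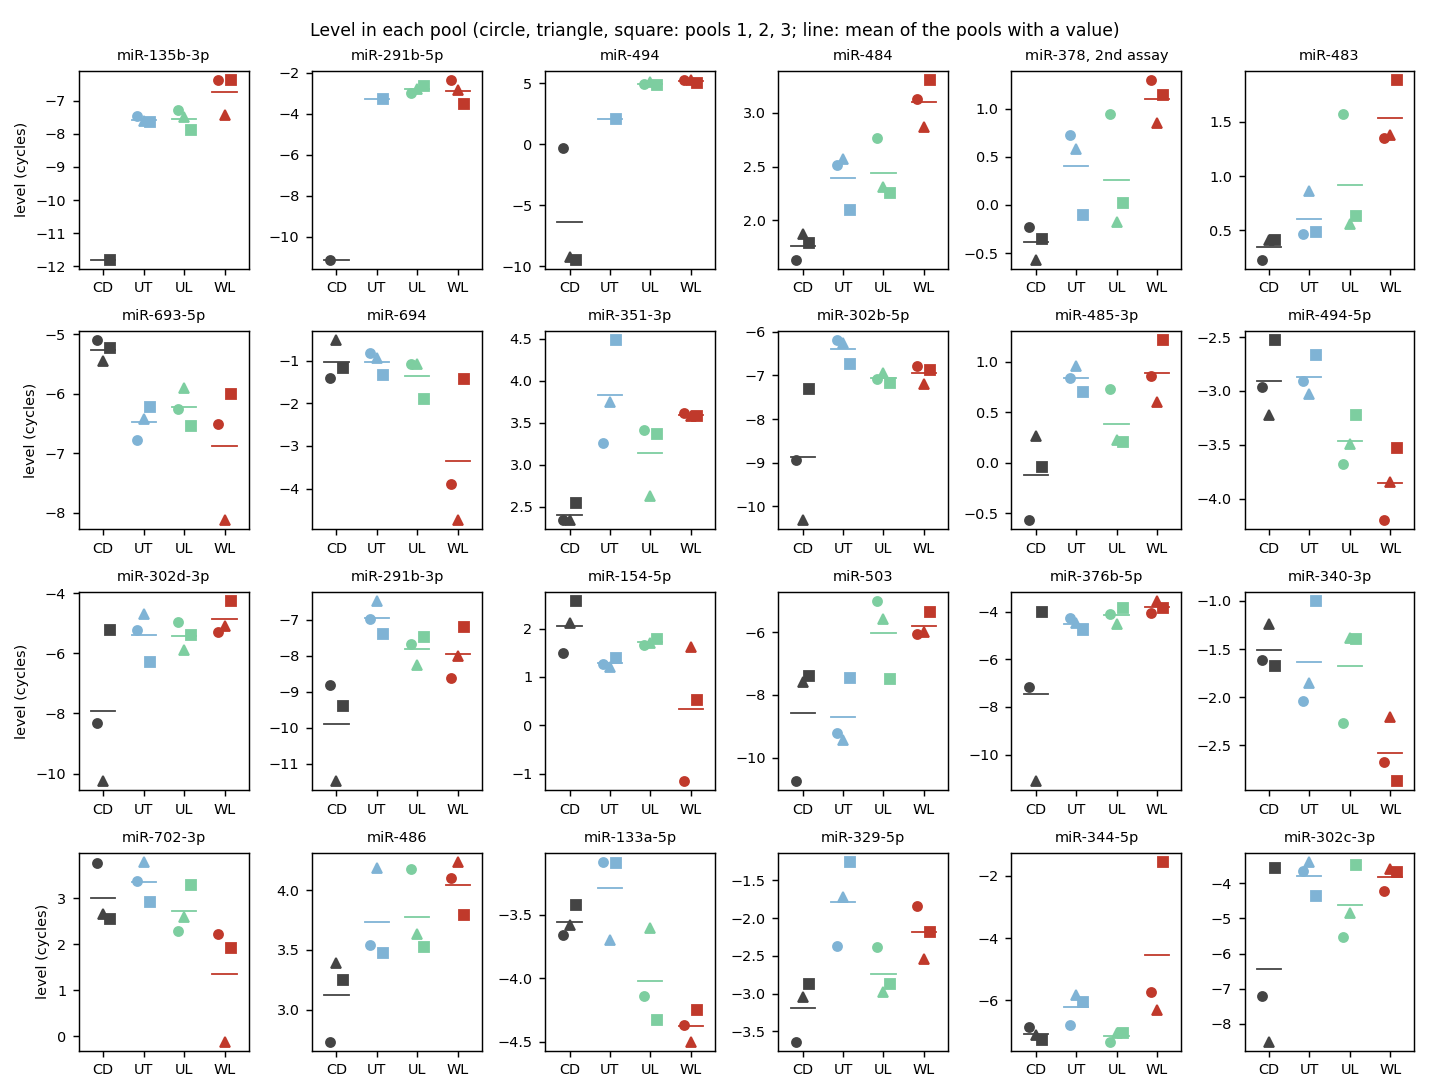
Each panel shows the level (cycles, log2 scale) of a microRNA in each pool of CD, UT, UL and WL, with the group mean as a bar. For miR-484 the 3 WL pools, at 2.87 to 3.31, sit above the 3 CD pools, at 1.63 to 1.87, with the UT and UL pools between.

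No microRNA lower in WL passed the threshold. miR-694, a microRNA annotated in rodents, stood at -1.41, -0.52 and -1.17 in CD and at -3.90, -4.75 and -1.43 in WL. All WL pools lay below the CD pools, WL 3 by only a small step. The difference was -2.33 (SE 0.68, adjusted p 0.303 by limma), and without WL 3 it was -3.29, with an adjusted p of 0.00113 by limma. miR-693-5p stood at -5.10, -5.44 and -5.23 in CD and at -6.51, -8.13 and -6.01 in WL, with a difference of -1.63 (SE 0.47, adjusted p 0.303 by limma). The UT and UL pools of miR-693-5p, at -6.78 to -5.90, lay below the CD pools as well.

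miR-340-3p stood at -1.61, -1.24 and -1.68 in CD and at -2.67, -2.20 and -2.87 in WL. Its difference of -1.07 (SE 0.38) had an adjusted p of 0.407 by limma. miR-133a-5p, the partner arm of a muscle microRNA, stood at -3.66, -3.58 and -3.42 in CD and at -4.37, -4.50 and -4.25 in WL. Both separated every WL pool from every CD pool with little spread inside the groups. miR-133a-5p differed by -0.82 (SE 0.30, adjusted p 0.423 by limma), and its partner miR-133a-3p by -0.05. Also below all CD pools among the 25 microRNAs of smallest p were miR-702-3p at -1.66 and miR-339-5p at -0.74. miR-154-5p at -1.73 and miR-742-3p at -1.03 overlapped the CD pools.

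Over the 25 microRNAs with all 6 values and the smallest p, 16 were higher in WL and 19 had groups that did not overlap. Over the 481, 212 were above 0 and 53 (11%) did not overlap. Choosing by small p favours groups that do not overlap, so the counts are a description. The adjusted p of the 25 by limma ran from 0.0374 to 0.608. None of the 25 passed the threshold for WL against the other high-fat groups: the smallest adjusted p was 0.805 for WL minus UL and 0.192 for WL minus UT, by limma. Over all 504 microRNAs no difference of WL minus UL or of WL minus UT passed the threshold (0% in both). At an unadjusted p under 0.05, limma gave 27 microRNAs for WL minus UL (5.36%) and 79 for WL minus UT (15.7%).

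A block of embryonic microRNAs turned on how the control pools were placed. The miR-302 and miR-367 hairpins lie together at chr3:127545228-127545807 and are known from pluripotent cells. Of the 7 assays matched to a position in this cluster with all 6 values, 5 had a difference above 0 (212 of the 481 in all). In 4 of the 7 the unadjusted p by limma was under 0.05 (6.65% of the 481). The median of the 7 was 1.53 against -0.05 over the 481 microRNAs. miR-302a-3p, also of the miR-302 family, was not matched to a position and is not among the 7. Its difference was -0.55. miR-302d-3p stood at -8.32, -10.25 and -5.21 in CD and at -5.29, -5.08 and -4.26 in WL. CD 3 lay with the WL pools, and CD 1 and CD 2 lay some cycles lower. The difference was 3.05 (SE 0.97, adjusted p 0.313 by limma), and 4.41 without CD 3 (adjusted p 0.00825 by limma). miR-302c-3p had the same layout, at -7.21, -8.51 and -3.56 in CD and -4.22, -3.58 and -3.69 in WL.

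For miR-302b-5p the CD pools stood at -8.94, -10.32 and -7.32 and the WL pools at -6.78, -7.19 and -6.87, so that here CD 3 was just below the WL pools. Its difference was 1.91 (SE 0.58, adjusted p 0.307 by limma). miR-376b-5p, from the imprinted region on chromosome 12, followed the same layout at -7.18, -11.11 and -4.02 in CD and -4.04, -3.55 and -3.85 in WL. Without CD 3, 6 microRNAs passed the threshold: miR-20b-5p, miR-291b-5p, miR-302b-5p, miR-302c-3p, miR-302d-3p and miR-376b-5p. Most of these values came from late cycles: the raw Ct of miR-302d-3p was 29.25 to 35.04 and that of miR-376b-5p was 28.46 to 35.90. The UT and UL pools of miR-376b-5p stood between -4.78 and -3.84, with CD 3 and the WL pools.

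Many of the higher microRNAs of smallest p were neighbours in the order of their database accession numbers. No source used here gives the order of the assays on the PCR plates, and accession order was taken up after the values were seen. Over the 473 microRNAs with 6 values and an accession, the difference of an assay and that of the next one correlated at Spearman's rho 0.35 and Pearson's r 0.33, as a description across assays. A running median over 9 assays reached 0.5 in a short run around miR-344-5p and in 2 longer stretches. The short run lies close to miR-135b-3p and was left out of the counts. Near miR-344-5p, at 2.54, lie miR-350-5p at 2.12, miR-351-3p at 1.18 and miR-346-3p at 0.26. The 2 longer stretches together hold 20 of the 473 microRNAs (4.23%). These stretches held 13 of the 16 higher microRNAs among the 25 of smallest p, and 10 of the 28 that lay above all CD pools. The stretches were chosen by these values, so the counts are a description.

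The first stretch runs from miR-489 to miR-546 and holds miR-483, miR-484, both arms of miR-485, miR-486 and miR-378 assay 2. All 8 of its microRNAs had a difference above 0, with a median of 1.10. Against each assay's mean over the 12 pools, the median deviation in this stretch was -0.87, -0.39 and -0.44 in the CD pools and 0.39, 0.48 and 0.84 in the WL pools. The CD pools were thus low across the stretch and the WL pools high. The second stretch runs from miR-367 to miR-488-5p and holds miR-494, miR-503, miR-291b-3p, 4 miR-302 assays and miR-376b-5p among its 12. All 12 had a difference above 0, with a median of 1.93. The median deviations were -1.64, -2.95 and 0.11 in CD 1, CD 2 and CD 3, and 0.52, 0.73 and 0.96 in the WL pools, so 2 CD pools were low across hairpins of several chromosomes. The part of assay position in these differences was not tested.

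When the median deviation of the neighbouring assays in accession order was subtracted from each level, an alternative chosen after seeing the data, miR-302b-5p turned to -0.87, miR-302c-5p and miR-291b-3p to -0.91 each, miR-486 to -0.14 and miR-485-3p to -0.13. miR-291b-5p and miR-135b-3p stayed past the threshold under this setting, while miR-494 did not, with a difference of 10.66 and an adjusted p of 0.28 by limma.

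**Figure D3:**
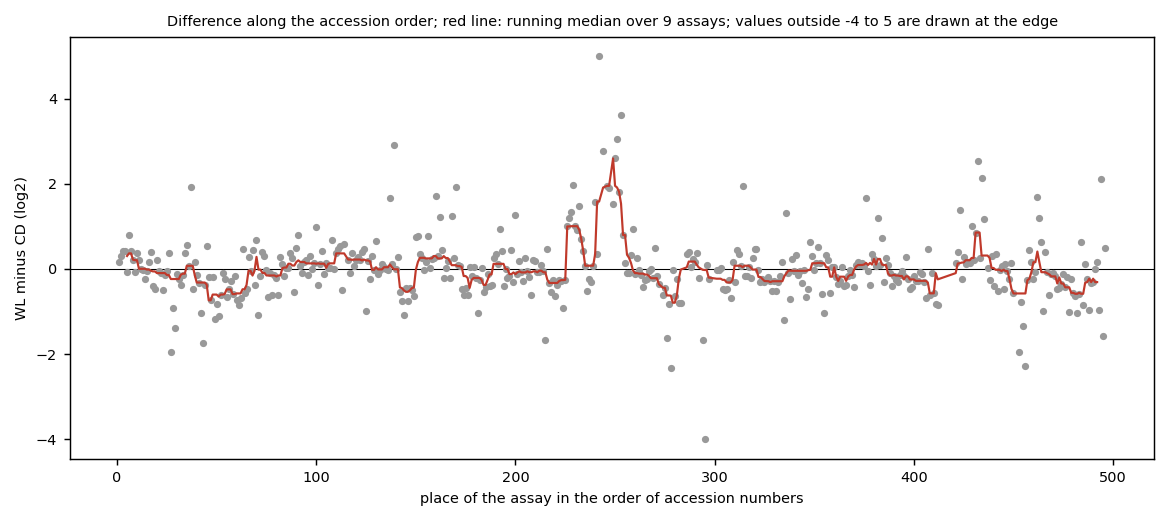
MicroRNAs with all 6 values are placed by their rank in accession order, with the difference of WL minus CD (log2) on the vertical axis, values beyond the axis drawn at its edge, and the running median over 9 assays as a line. The line rises highest in 2 nearby stretches, whose microRNAs had median differences of 1.10 and 1.93. It also reaches 0.5 in a short run around miR-344-5p, and falls around miR-694 and miR-186-5p.

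Within the WL group, wide differences often came from a single pool. Levels spanned 3 cycles or more in 41 microRNAs in WL and in 13 in CD, of the 481. In 32 of the 41, WL 3 was the pool farthest from the others, on the high side in 19. miR-331-3p stood at -3.10, -2.70 and -2.86 in CD and at -2.65, -2.60 and 5.33 in WL. Its difference of 2.91 (SE 1.61, adjusted p 0.762 by limma) thus came from WL 3, with WL 1 and WL 2 at the CD values.

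The same held for miR-592-3p, at -5.10, -4.70 and 0.46 in WL against -5.81 to -4.66 in CD, and for miR-485-5p, at -2.29, -2.35 and 2.48. miR-758-5p went the other way in WL 3, at 0.10, -0.14 and -4.48 against -0.45 to 0.87 in CD. With the values of miR-592-3p and miR-758-5p exchanged in WL 3 and in the UT pools, the difference of miR-758-5p turned from -1.57 to 0.08. These assays stood apart in opposite directions in WL 3, so such an exchange narrows the difference by construction. Whether their values had been exchanged was not tested. WL 2 carried the lowest values: miR-703, otherwise at 4.52 to 6.47, stood at -6.83 there, and miR-181b-1-3p, otherwise at -5.19 to -4.58, stood at -12.13.

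**Figure D4:**
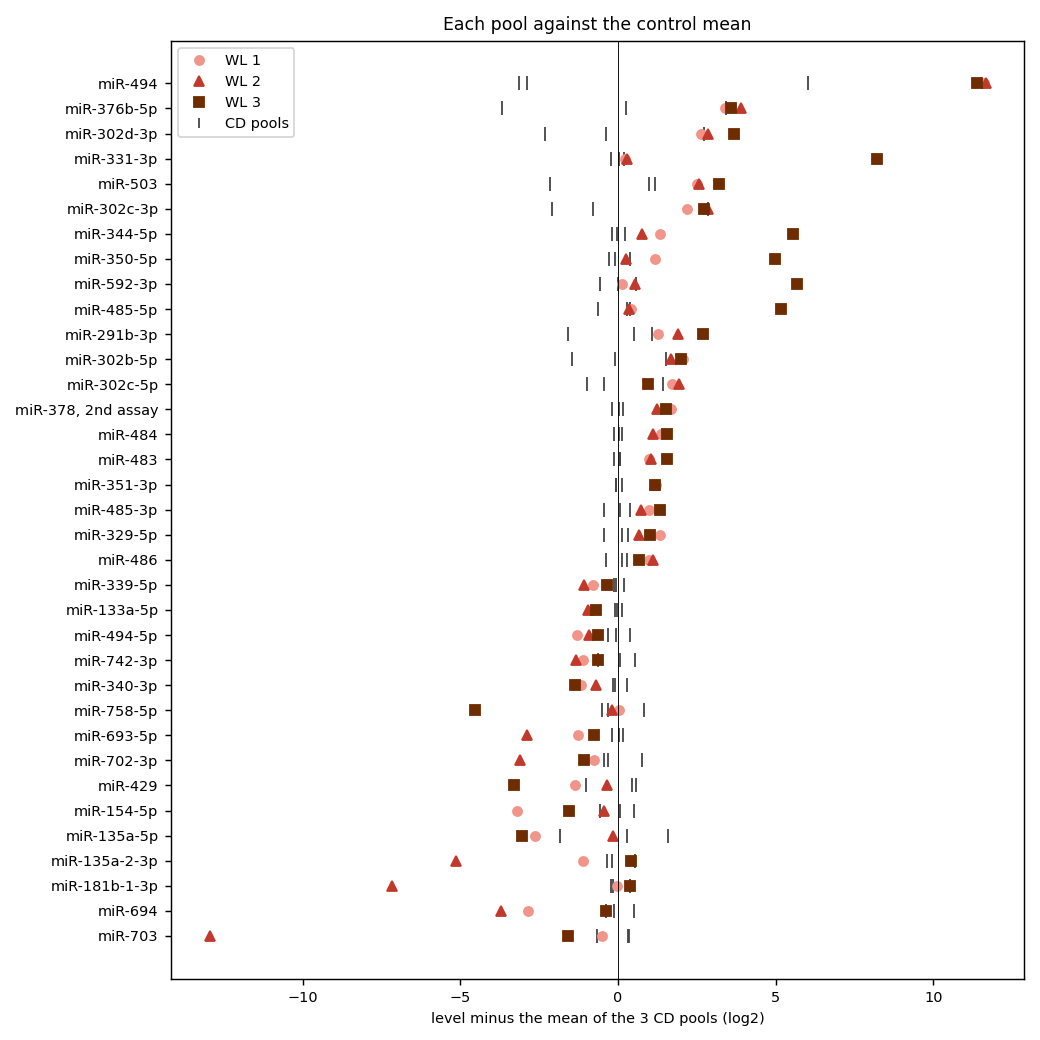
Each row is a microRNA with all 6 values, from the 25 of smallest p and the 10 highest and 10 lowest differences. Points give the level of each WL pool minus the CD mean (cycles, log2 scale), and ticks give the CD pools. Over all microRNAs with 6 values, not only those drawn, these differences scatter with an SD of 0.97 in WL 1, 1.18 in WL 2 and 1.48 in WL 3.

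The let-7 and miR-30 families hold abundant microRNAs of fat. The let-7 family, repressors of growth and of insulin signalling that share the seed GAGGUAG, had 9 members with 6 values and a median difference of 0.13, and 8 of the 9 were above 0. let-7a-5p stood at 7.69, 7.78 and 7.68 in CD and at 7.83, 7.83 and 7.89 in WL. Every WL pool lay above every CD pool, by a difference of only 0.13 (SE 0.25). let-7b-5p, at 8.53, 8.82 and 8.63 against 8.41, 8.77 and 8.89, and let-7c-5p, at 8.11, 8.73 and 8.62 against 8.32, 8.43 and 8.78, overlapped. miR-98-5p was the other member above all CD pools, at 0.31. Over the 481, 28 (5.82%) lay above all CD pools and 212 had a difference above 0. The 5 measured miR-30 guides, which are known to favour adipocyte formation, differed by 0.01 to 0.39, and miR-30d-5p lay above all CD pools. The 13 assays of the miR-17 to miR-92a cluster and its paralogs had a median of 0.24 (0.61 without WL 3). Of the 13, 11 were above 0, and miR-363-5p, at 1.69, lay above all CD pools. No member of these 3 lists with all 6 values had an unadjusted p under 0.05.

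MicroRNAs that act on adipocyte formation lay on both sides of 0. Of the 20 measured pro-adipogenic microRNAs, 11 had a difference above 0 (212 of the 481 in all) and the median was 0.07. Only 1 of the 20, miR-378 assay 2, had an unadjusted p under 0.05 by limma. That is near the share of 6.65% over the 481. Of the 17 anti-adipogenic microRNAs with 6 values, 7 were above 0 and the median was -0.06, with none at that p. Without WL 3 the medians were 0.17 and 0.11, against 0.02 over all microRNAs. miR-143-3p, which promotes adipocyte differentiation, stood at 5.11, 4.73 and 4.62 in CD and at 4.49, 4.74 and 4.77 in WL. Its groups overlapped and its difference was -0.15 (SE 0.36). miR-27b-3p, a repressor of Pparg, stood at 4.26, 3.89 and 3.79 in CD and at 4.12, 4.30 and 5.92 in WL. Its difference of 0.80 (SE 0.53, adjusted p 0.844 by limma) rested mainly on WL 3.

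The study's title names the mTOR network, and 17 microRNAs known to repress mTOR or its partners had 6 values. Their median difference was 0.00, and 0.23 without WL 3. Of the 17, 9 were above 0, 1 lay above all CD pools and 1 below, near the shares of 5.82% and 5.2% over the 481. The former was miR-497-5p, of the miR-15 and miR-16 family, at -0.28, -0.27 and -0.65 in CD and 0.39, -0.12 and 1.35 in WL. Its difference was 0.94 (SE 0.41, adjusted p 0.608 by limma). The latter, miR-149-5p, stood at 0.84, 0.64 and 0.56 in CD and at -0.16, 0.44 and 0.34 in WL, a difference of -0.48 (SE 0.73). miR-99a-5p and miR-100-5p, which bind the mTOR message, differed by 0.21 (SE 0.33) and 0.30 (SE 0.29), and miR-7a-5p by -1.02 (SE 0.48, adjusted p 0.663 by limma).

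MicroRNAs reported to rise in obese fat had a median difference of 0.13 over 12 members, 7 of them above 0. Summed on the linear scale, which assumes equal efficiencies, the level of the list was 8.13, 7.93 and 8.08 in CD and 9.04, 8.83 and 8.61 in WL. The WL sums lay above the CD sums, carried in WL 1 and WL 2 by miR-21a-5p and in WL 3 by miR-146a-5p. miR-21a-5p, raised by inflammation and known to favour adipogenesis, stood at 7.71, 7.60 and 7.90 in CD and at 8.89, 8.64 and 7.44 in WL. WL 1 and WL 2 were above the CD pools and WL 3 below them, for a difference of 0.59 (SE 0.43, adjusted p 0.873 by limma). miR-146a-5p, a brake on NF-κB signalling, stood at 4.05, 3.16 and 1.60 in CD and at 3.44, 4.00 and 7.15 in WL, so that WL 3 alone was above the CD pools. miR-342-3p, abundant in leukocytes, was the only member below all CD pools, at 1.03, 1.37 and 0.80 in CD and 0.36, 0.63 and -0.01 in WL, a difference of -0.74 (SE 0.35, adjusted p 0.663 by limma). Of the 14 microRNAs reported to fall in obese fat, 6 were above 0 and the median was -0.03.

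**Figure D5:**
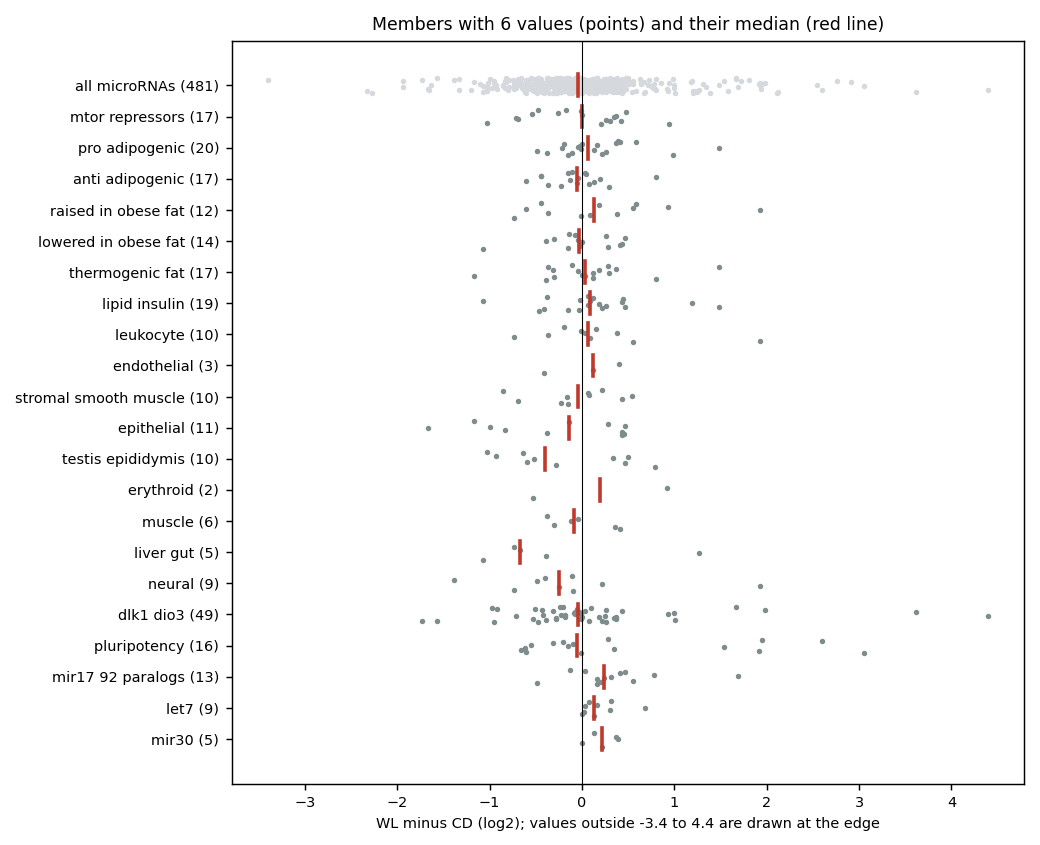
For each list, points give the difference of WL minus CD (log2) of its microRNAs with all 6 values, with the list's median marked and values beyond the axis drawn at its edge. The medians of most lists lie within 0.25 of 0, and the liver and gut list is lowest at -0.67.

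Markers of the cell types of the fat pad lay on both sides of 0. The 10 measured leukocyte markers had a median difference of 0.06, and their summed level was 6.34 to 6.75 in CD, 6.59 in WL 1, 6.56 in WL 2 and 8.06 in WL 3. The sum in WL 3 was dominated by miR-146a-5p at 7.15 and miR-142-3p, known from blood cells, at 5.86. The remaining markers were mixed: against the CD mean, WL 3 differed by -1.08 in miR-342-3p and -1.02 in miR-181b-5p. It differed by 0.08 in miR-223-3p, 0.13 in miR-150-5p, 0.15 in miR-146b-5p, 0.33 in miR-181a-5p and 0.34 in miR-155-5p. For miR-142-5p, the partner arm of miR-142-3p, it differed by 0.84. The part of leukocyte RNA in the values of WL 3 was not tested. miR-223-3p, of myeloid cells, stood at 2.37, 1.90 and 1.69 in CD and at 2.49, 1.67 and 2.07 in WL. The endothelial miR-126a-3p, at 8.02, 8.49 and 7.34 in CD and 8.24, 7.61 and 6.79 in WL, also overlapped, as did the stromal miR-145a-5p at 7.85, 6.59 and 6.79 against 6.83, 7.52 and 7.11. Of the 10 stromal markers, with a median of -0.04 (0.22 without WL 3), miR-199a-5p lay below all CD pools, at 4.46, 4.10 and 3.87 in CD and 3.64, 3.48 and 2.75 in WL. It differed by -0.85 (SE 0.39, adjusted p 0.663 by limma), and its partner arm miR-199a-3p by -0.69 (SE 0.38).

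Some epithelial microRNAs, which mature fat cells are not known for, divided the pools across the diets. miR-205-5p stood at 5.20, 1.92 and 4.80 in CD and at 3.15, 5.29 and 4.85 in WL, and miR-141-3p at 5.60, 2.22 and 4.07 against 1.59, 5.49 and 4.41. CD 2 and WL 1 were low in both, and the summed level of the 11 epithelial markers was 4.71 in CD 2 and 5.13 in WL 1 against 6.87 to 7.45 in the other 4 pools. Other members were placed differently: miR-429, miR-96-5p, miR-182-5p and miR-183-5p were lowest in WL 3, at -1.08, -4.53, -2.60 and -0.26, and miR-203-3p ran only from 0.85 to 1.34 over the 6 pools. The median difference of the 11 was -0.14, and 0.11 without WL 3. The 10 measured microRNAs of testis and epididymis, the organ the pad adjoins, had a median difference of -0.40 (-0.23 without WL 3). Their summed level was 4.82 to 5.88 in CD and 4.28 to 4.92 in WL. miR-742-3p of this list stood at 4.56, 5.25 and 5.73 in CD and at 4.06, 3.83 and 4.56 in WL. The liver and gut list was lowest, with miR-122-5p at -1.54, -0.21 and -0.20 in CD and -1.39, -1.68 and -2.09 in WL, a difference of -1.07 (SE 0.54, adjusted p 0.72 by limma). No member of the liver and gut list with 6 values had an unadjusted p under 0.05.

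The arms of a hairpin shared little of the difference. In 112 hairpins both arms had values in all 6 pools, and in 59 the arms differed from CD in the same direction. Across these hairpins the differences of the 5p and the 3p arm correlated at Pearson's r of -0.01 and Spearman's rho of 0.14, as a description. In 23 hairpins an arm differed by 1 cycle or more, and in 2 of them both arms did so in the same direction, miR-302c at 1.53 and 2.59 and miR-485 at 1.98 and 1.00. In 1, miR-676, the arms differed by that much in opposite directions, at -1.20 and 1.32. Neighbouring hairpins differed in the same direction in some clusters and not in others. The 43 assays matched to a position between Mir379 and Mir410 at chr12:109709060-109743795, the main cluster of the Dlk1-Dio3 region, had a median of -0.03. They ran from -1.73 for miR-154-5p to 11.56 for miR-494. miR-485-5p, at 1.98, was not matched to a position and is not among the 43. The 6 assays of the X-linked cluster from Mir500 to Mir532, at chrX:7237683-7248497, were all below 0, with a median of -0.34, and the 4 assays from Mir25 to Mir106b, at chr5:138165321-138165818, were all above 0, with a median of 0.28. None of these 10 had an unadjusted p under 0.05 by limma. The 4 assays from Mir206 to Mir133b and the 4 from Mir471 to Mir463 were also all below 0, with medians of -0.31 and -0.78. None of them had an unadjusted p under 0.05 by limma either.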

How the data were processed

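Per the file headers, the authors deposited raw threshold cycles (Ct), a table of normalized ratios and a table of fold changes as ratios of group means. No source used here names the PCR platform. Ct values were used. The normalized ratios grew with Ct, opposite to their header. The WL column of the authors' deposited table of fold changes equalled UT 3, UL 1 and UL 2 over CD in 507 of 507 rows (tolerance 1e-04 on the log2 scale) and WL over CD in 0, so neither table was used. Of 507 rows, 1 repeat was dropped, leaving 504 microRNAs and 2 reference RNAs. 28 values of 23 microRNAs were missing in the 6 pools and stayed missing.

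A model of 4 groups over 12 pools, without litters, was fitted to the levels in R 4.3.3 by lmFit and eBayes of limma 3.58.1, two-sided, with Benjamini-Hochberg adjustment over 504 microRNAs at 0.05; 3 contrasts were computed. Precision is limited by having 3 pools in a group. The script was tested on simulated data. Named were microRNAs past the threshold, the 25 of smallest p with 6 values, the 10 highest and 10 lowest differences, their opposite arms, the 10 highest levels and up to 4 top members of each of 22 lists (333 entries, 38 unmatched), of which 1 is not reported here. Other named microRNAs were chosen after their values were seen. The comparison and lists were chosen with earlier results of these data known. RefSeq sequences matched 413 of 504 microRNAs, 393 by name and 20 as the remaining arm. Alternatives changed scaling, missing values, filters, weights, block, assay neighbours and pools.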

Additional observations from a re-analysis of the deposited data

How the results depend on the processing

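The count of 3 microRNAs past the threshold moved to 1 with only the WL and CD pools in the fit or missing values set to Ct 37, to 0 with only microRNAs measured in all 12 pools, in all 6 pools, or with Ct of 35 or later set to missing (unadjusted p under 0.05 by limma: 33, 33 and 34), and to 6 with sample weights. Leaving out a pool gave 2 to 6. Non-overlapping microRNAs numbered 34 scaled to RNU-43 and 92 scaled to U6-snRNA, where WL 3 dropped out and the median difference over all microRNAs moved from -0.06 to 0.26, and 53 to 108 with a pool left out, where fewer pools must separate. WL minus UL had 1 call with U6-snRNA and 0 to 1 with a pool left out. WL minus UT had 1 with RNU-43, 9 with U6-snRNA, 7 with weights and 0 to 12 with a pool left out, 12 without WL 3. Differences reversed for miR-758-5p (0.17 with U6-snRNA, 0.0814 with assays exchanged), for miR-181b-1-3p (0.20 with late Ct missing, -3.60 to 0.17 with a pool left out, 0.17 without WL 2), and with accession-order neighbours subtracted for miR-302b-5p (-0.87), miR-485-3p (-0.13), miR-291b-3p (-0.91), miR-486 (-0.14) and miR-302c-5p (-0.91); the cause was not tested. miR-494 was past the threshold in 11 of 27 other settings, miR-291b-5p in 23 of 24 and miR-135b-3p in 22 of 23. Without CD 1 miR-291b-5p, and without CD 3 miR-135b-3p, could not be fitted. miR-484 passed in 1 of 28, with sample weights. Deviations of same-numbered CD and WL pools correlated at 0.08, -0.10 and 0.11 across assays, which cannot show whether the numbers pair the pools. The replicate block left 2 calls, miR-135b-3p and miR-291b-5p. Over 38 tested microRNAs, 1003 of 1044 values kept their direction and side of the threshold. Most of the 38 were not past the threshold in the main fit, so this count says little about the 3 calls, whose own counts are given above. Of the microRNAs with 6 values, 45 had a mean Ct of 30 or later.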
